A study of Mus musculus with 6 samples.

Results

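Dpysl5, Gpr55, Chl1, Sox6, Ctla2a and Emb are 6 genes outside the known receptor families of natural killer (NK) cells, out of 8520 genes in the deposited table. They were chosen by their measured RNA level, which was clearly higher in NK cells carrying Ly49G than in NK cells carrying Ly49I, so that difference is described here and was not tested. Ly49 receptors are surface lectins of mouse NK cells that bind MHC class I molecules, and each NK cell carries only some of them. The cells came from spleens of 20 untreated C57BL/6Ncr mice aged 6 to 8 weeks. NK cells enriched on a magnetic system were sorted as CD3-negative and NK1.1-positive, then split into Ly49G-positive, Ly49C/I-negative cells (Ly49G+ below) and Ly49G-negative, Ly49C/I-positive cells (Ly49I+ below). Each population gave 3 libraries, called biological replicates in the series' description. The number of mice behind each library is not stated, so the p-values measure only the spread between these libraries, which may be partly technical.

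The 6 genes code for proteins of different kinds. Dpysl5 encodes a collapsin response mediator protein, one of a family of cytosolic proteins that bind tubulin and relay semaphorin signals in growing axons. Gpr55 encodes a G protein-coupled receptor for the lipid lysophosphatidylinositol, which acts through G proteins of the G12/13 class on the small GTPase RhoA. Chl1 encodes a cell adhesion molecule of the immunoglobulin superfamily, a close homologue of the neural molecule L1. Sox6 encodes an HMG-box transcription factor of the SoxD group, known from cartilage, muscle and red cell development. Ctla2a encodes a small inhibitor of cysteine cathepsins that resembles a cathepsin propeptide and was found in activated T cells. Emb encodes embigin, a membrane glycoprotein related to basigin that accompanies lactate and pyruvate transporters to the cell surface.

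The genes lie on 5 chromosomes (assembly GRCm38.p6, which mm10 represents). Dpysl5 (gene 65254) spans chr5:30711564-30799369, Gpr55 (gene 227326) chr1:85933221-85991583, Chl1 (gene 12661) chr6:103510584-103733038 and Sox6 (gene 20679) chr7:115470872-116040776. Ctla2a (gene 13024) at chr13:60934155-60936625 and Emb (gene 13723) at chr13:117220573-117274415 share a chromosome but are far apart on it. RefSeq annotates other genes within the span of each except Ctla2a, among them Sox6os at Sox6, and none of these overlapping genes is in the deposited table. In windows of 100 bases, no GENCODE transcript sequence of Dpysl5, Gpr55, Chl1 or Sox6 recurred in transcripts of another gene. Of the Ctla2a windows 11.02% recurred in another gene and 1.11% in its paralogue Ctla2b, and of the Emb windows 1.46% recurred on the same strand and 8.51% only on the opposite one. No source states how shared or antisense reads were counted, and the Ctla2a and Emb levels carry that uncertainty.

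The RefSeq promoter table holds all 6 genes, and the 250 bases before the annotated start are shown for the 3 with a window wholly outside the gene's own span (for Ctla2a, 1 of its 2 annotated starts), because that stretch holds no annotated part of the gene itself. Sox6 has 6 annotated starts, and all of their windows, like those of Gpr55 and Chl1, lie within the gene's annotated span, so none of these is printed. Capitals mark matches on either strand to motif cores of factor families active in NK cells, namely CTTTGA (TCF), TGTGGT (RUNX) and GGTGTG (T-box), none of which overlaps another in these windows.
Dpysl5, chr5:30711314-30711563, plus strand: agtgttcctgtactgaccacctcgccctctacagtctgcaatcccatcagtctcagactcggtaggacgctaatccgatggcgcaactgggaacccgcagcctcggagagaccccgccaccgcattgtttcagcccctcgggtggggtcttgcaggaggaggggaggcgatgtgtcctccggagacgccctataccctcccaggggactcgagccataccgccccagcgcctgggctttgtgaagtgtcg
Ctla2a, chr13:60936626-60936875, minus strand: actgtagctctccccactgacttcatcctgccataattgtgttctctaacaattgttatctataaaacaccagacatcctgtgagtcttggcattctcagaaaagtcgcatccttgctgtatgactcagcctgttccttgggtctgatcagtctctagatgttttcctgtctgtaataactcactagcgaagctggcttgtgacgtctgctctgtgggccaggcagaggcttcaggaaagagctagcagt
Emb, chr13:117220323-117220572, plus strand: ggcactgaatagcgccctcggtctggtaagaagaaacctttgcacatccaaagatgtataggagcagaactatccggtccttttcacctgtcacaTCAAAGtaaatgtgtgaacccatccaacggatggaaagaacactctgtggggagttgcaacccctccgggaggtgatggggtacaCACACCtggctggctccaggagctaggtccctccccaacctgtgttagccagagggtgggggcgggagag
The Emb window held 1 TCF match and 1 T-box match, and the Dpysl5 and Ctla2a windows held none of the 3 motifs. Over all 32851 promoter windows of this length 13.8% held the TCF letters, 14.05% the RUNX letters and 16.3% the T-box letters. The windows differed in base composition, with a GC content of 62.8% and 17 CG pairs for Dpysl5, 54.8% and 6 for Emb, and 46.8% and 3 for Ctla2a. The median over all windows was 52.4% and 6 pairs.

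Levels are given as CPM, the reads of a gene scaled to a library of 1000000 reads, obtained from the deposited log2 values. Library totals ran from 33599679 to 40892154 reads. The sort was visible in the RNA of Klra7 and Klra9, but not in that of Klra3, the gene of Ly49C. Klra3 stood at 246, 255 and 243 CPM in the Ly49C/I-negative Ly49G+ replicates and 208, 213 and 183 in the Ly49I+ replicates. Its log2 difference was 0.30 ± 0.08 (limma adjusted p = 0.0604, and 0.0109 with the replicate number as a block). Klra7, the gene of Ly49G, stood at 917 to 1037 CPM in Ly49G+ and 10.8 to 11.7 in Ly49I+, and Klra9, the gene of Ly49I, at 74.1 to 84.1 and 990.2 to 1194. All 14 NK cell markers listed, such as Ncr1 and Klrb1c, were measured, with a summed level of 17435 to 17627 CPM in Ly49G+ and 17887 to 18236 in Ly49I+. Single markers differed in both directions. Eomes (0.39 ± 0.07) passed limma's adjusted p of 0.05 toward Ly49G+, beside 1.82% of all genes. Gzmb (-0.47 ± 0.07), Prf1 (-0.49 ± 0.10) and Tbx21 (-0.42 ± 0.10) passed toward Ly49I+, beside 1.77%, and 10 did not pass. The count of 4 became 0 to 6 with 1 library left out.

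Dpysl5, the collapsin response gene, had the largest relative difference of the 6. Its level was 12.7, 11.1 and 9.07 CPM in Ly49G+ replicates 1, 2 and 3, from 425, 402 and 338 reads. In Ly49I+ replicates 1, 2 and 3 it was 3.51, 2.90 and 3.78 CPM, from 121, 118 and 147 reads. Every Ly49G+ library lay above every Ly49I+ library, by at least 2.40-fold between the closest. The means were 10.96 ± 1.802 and 3.40 ± 0.452 CPM (SD, n = 3 each), a 3.23-fold ratio, and the log2 difference of Ly49G+ minus Ly49I+ was 1.69 ± 0.23 (SE from limma).

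The lipid receptor gene Gpr55 stood at 15.3, 15.6 and 11.9 CPM in the Ly49G+ replicates and 6.05, 4.61 and 5.55 CPM in the Ly49I+ replicates. Replicate 3 was the lowest Ly49G+ library, as for Dpysl5, and it was still 1.97-fold above the highest Ly49I+ library. The Gpr55 means were 14.2 ± 2.03 and 5.403 ± 0.731 CPM, a ratio of 2.64, with a log2 difference of 1.40 ± 0.19.

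The adhesion gene Chl1 was measured at 16.6, 13.99 and 15.1 CPM in Ly49G+ and at 7.38, 4.51 and 6.19 CPM in Ly49I+. Its Ly49I+ libraries were the most spread of the 6 genes on the log2 scale (SD 0.36), with replicate 2 lowest. The means of 15.2 ± 1.32 and 6.03 ± 1.44 CPM gave a 2.53-fold ratio and a log2 difference of 1.36 ± 0.20.

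Sox6, the only transcription factor gene among the 6, was more even within each population. It stood at 12.3, 13.4 and 13.4 CPM in the Ly49G+ replicates and 5.36, 6.49 and 5.83 CPM in the Ly49I+ replicates. The lowest Ly49G+ library exceeded the highest Ly49I+ library by 1.90-fold. Its means were 13.0 ± 0.615 and 5.89 ± 0.571 CPM, a 2.21-fold ratio, and the log2 difference was 1.147 ± 0.17.

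The cathepsin inhibitor gene Ctla2a was the most abundant of the 6. It stood at 180, 185 and 198 CPM in Ly49G+ and 102, 107 and 104 CPM in Ly49I+, from 6049 to 7390 and 3522 to 4378 reads. The libraries of each population lay close together and did not overlap. Means of 188 ± 9.36 and 104.2 ± 2.70 CPM gave a log2 difference of 0.85 ± 0.07, the smallest error among the 6.

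Emb, the embigin gene, stood at 112, 136 and 114 CPM in the Ly49G+ replicates and 64.2, 76.2 and 63.1 CPM in the Ly49I+ replicates. Replicate 2 was the highest in both populations. The means were 120.7 ± 13.2 and 67.8 ± 7.23 CPM, a 1.78-fold ratio, with a log2 difference of 0.83 ± 0.10. In all 6 genes the populations did not overlap, in the direction by which the genes had been chosen. Among all listed genes, 12.5% had all 3 Ly49G+ libraries above all 3 Ly49I+ libraries, and nothing is read from the 6 against that share. In bulk libraries such as these, fewer cells carrying a transcript and less RNA per cell cannot be told apart.

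**Figure D1:**
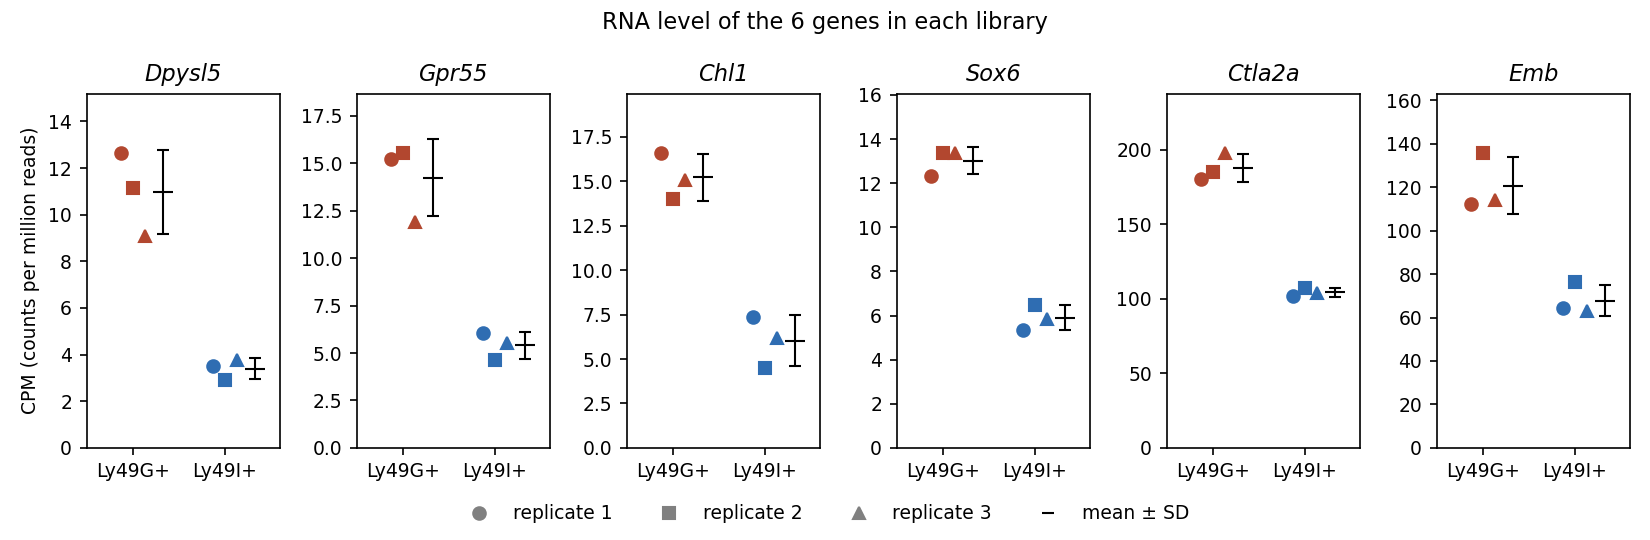
Level of each of the 6 genes in CPM (y axis from 0, its own scale in each panel) in the 3 Ly49G+ (red) and 3 Ly49I+ (blue) libraries, with a symbol for each replicate number and the mean ± SD in black. No Ly49I+ point reaches a Ly49G+ point in any panel. Ctla2a and Emb reach 198 and 136 CPM, the other 4 genes at most 16.6.

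The selection rule named no cut-off. Ordered by log2 difference toward Ly49G+, the genes took places 6 (Dpysl5), 8 (Gpr55), 9 (Chl1), 13 (Sox6), 29 (Ctla2a) and 35 (Emb) of 8520. The genes just above and just below Emb were Cmah (0.83) and Klra4 (0.83), the latter a Ly49 gene.

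The low filter of the table bears on 4 of the 6. All genes in the table had 2 or more libraries at 10 CPM, and Dpysl5, Gpr55, Chl1 and Sox6 had no Ly49I+ library at that level. They were therefore listed through their Ly49G+ libraries alone, and a gene listed that way had to be higher in 2 or more Ly49G+ libraries than in every Ly49I+ library. Of all listed genes, 88 had no Ly49I+ library at 10 CPM, and 93 had no Ly49G+ library there. The mean Ly49I+ log2 level of Dpysl5 was above that of only 0.0117% of listed genes, and that of Chl1 above 0.0587%. Ctla2a and Emb passed the filter in every library, and their Ly49I+ means exceeded those of 73.1% and 61.5% of genes.

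**Figure D2:**
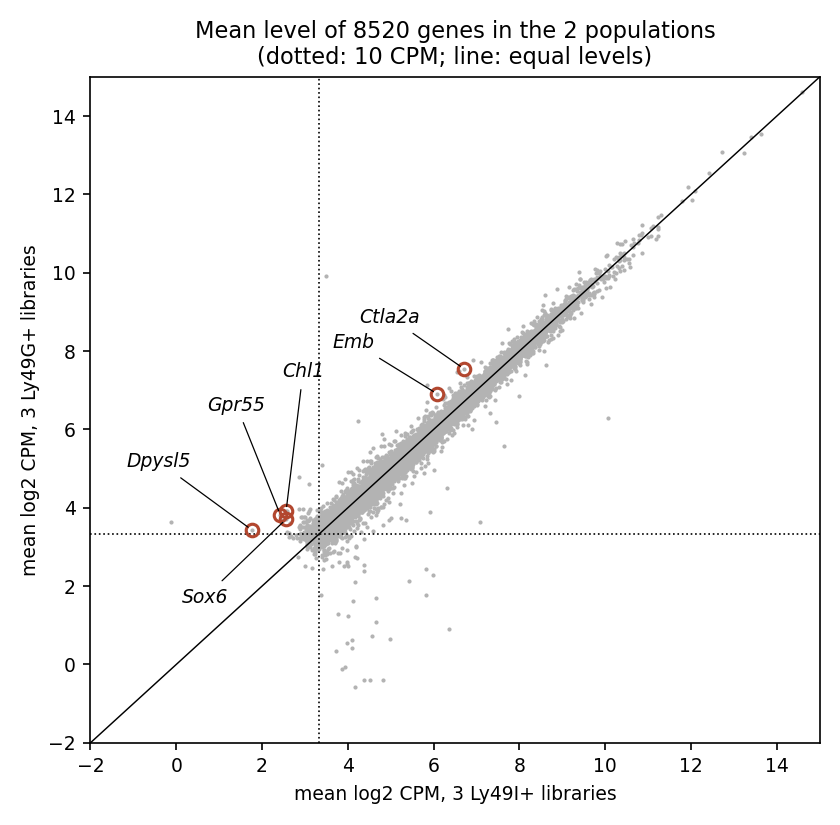
Mean log2 CPM of each of 8520 genes in the 3 Ly49I+ libraries (x axis) and the 3 Ly49G+ libraries (y axis), with the 6 genes circled, the line of equal levels and dotted lines at 10 CPM. Dpysl5, Gpr55, Chl1 and Sox6 lie left of the vertical dotted line, which marks the mean level, and were themselves listed through Ly49G+ only. Ctla2a and Emb lie on the upper edge of the main band.

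Per length, Ctla2a was the highest in both populations. Dividing by the summed length of all annotated exons gave 89.0 ± 4.44 CPM per kilobase for Ctla2a in Ly49G+ and 49.4 ± 1.28 in Ly49I+. Emb followed at 17.5 ± 1.92 and 9.82 ± 1.05, and Gpr55 at 3.83 ± 0.544 and 1.45 ± 0.196 CPM per kilobase. In Ly49G+ Dpysl5 (1.49 ± 0.244) and Chl1 (1.24 ± 0.107) did not differ beyond their spread, and Sox6 was lowest at 0.878 ± 0.0415. In Ly49I+ the values of Chl1 (0.490 ± 0.117), Dpysl5 (0.460 ± 0.0613) and Sox6 (0.397 ± 0.0385) overlapped. Exon sums count every annotated transcript, and which ones these cells used was not tested.

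The spread between libraries was larger than counting error for Dpysl5, Gpr55, Chl1, Emb and Ctla2a. For Dpysl5 the SD of log2 CPM was 0.24 in Ly49G+, where its read number alone would give 0.073, and 0.20 against 0.13 in Ly49I+. For Sox6 it was 0.069 against 0.067 in Ly49G+, so those 3 libraries were as close as counting allows, and 0.14 against 0.096 in Ly49I+. Among the 500 genes nearest in mean level, 9.8% had a smaller within-population SD than Sox6 and 16.6% a smaller one than Ctla2a. For Dpysl5, Gpr55, Chl1 and Emb these shares were 50.4%, 46.4%, 70.0% and 81.4%.

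The replicate number was taken to pair the libraries, so the difference was also taken within each number. No label states this pairing, and some differently numbered libraries matched as well. For Dpysl5 the ratio of Ly49G+ to Ly49I+ was 3.61, 3.84 and 2.40 in replicates 1, 2 and 3, and for Gpr55 2.52, 3.38 and 2.15. The ratios of Chl1 were 2.25, 3.10 and 2.44, so all 3 of these genes had their largest ratio in replicate 2. Sox6 did not, at 2.298, 2.06 and 2.296. Ctla2a gave 1.77, 1.73 and 1.91 and Emb 1.74, 1.79 and 1.81, the narrowest ranges.

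Likeness across the libraries was measured as the root mean square difference of log2 CPM over the 6 libraries, after taking off each gene's own mean. It includes the size of the difference between the populations, by which the genes were chosen, and is given as a description. The closest pair was Ctla2a and Emb (0.12), followed by Sox6 and Ctla2a (0.16), Dpysl5 and Gpr55 (0.17) and Gpr55 and Chl1 (0.17). The farthest were Dpysl5 and Emb (0.50). Dpysl5, Gpr55 and Chl1 were lowest in Ly49I+ replicate 2, whereas Sox6, Ctla2a and Emb were highest there among the Ly49I+ libraries. Of 18 myeloid and dendritic cell markers 5 were listed, and 3 of them, Csf1r, Lyz2 and Cd68, were also highest in that library. Csf1r, which encodes a growth factor receptor of macrophages, stood at 41.3, 138 and 31.7 CPM in the Ly49I+ replicates and 1.53, 4.47 and 5.94 in the Ly49G+ replicates. Lyz2, the lysozyme gene, stood at 98.6, 352 and 72.5 CPM in Ly49I+ and 6.41, 13.2 and 22.6 in Ly49G+. Csf1r and Lyz2 passed in limma toward Ly49I+ (adjusted p = 0.00326 and 0.00701), beside 1.77% of all genes. With 1 library left out the adjusted p rose to at most 0.029 for Csf1r and 0.0569 for Lyz2. Cd68 and Cst3 did not pass, and Itgax, which NK cells also express, was higher in every Ly49G+ library without passing (1037 to 1120 against 827 to 945 CPM, adjusted p = 0.0985). With the replicate number as a block in limma, Cd68 and Cst3 passed toward Ly49I+ (adjusted p = 0.0411 and 0.0477) and Itgax toward Ly49G+ (0.0185). Itgax made up most of the summed level of the 5 markers, which was 996 to 1492 CPM in Ly49I+ and 1070 to 1173 in Ly49G+. Their part in the levels of the 6 genes was not tested. Without Ly49I+ replicate 2 and without each other library in turn, the log2 difference stayed between 1.57 and 1.82 for Dpysl5, 1.29 and 1.52 for Gpr55, and 1.17 and 1.52 for Chl1, with the lowest Gpr55 and Chl1 values without Ly49I+ replicate 2.

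Other genes were ranked by the same measure over the same 6 libraries, the size of the difference included. Klra1, the gene of the inhibitory receptor Ly49A, was nearest to Gpr55 (0.060), Chl1 (0.19) and Dpysl5 (0.22). It stood at 142 ± 19.6 CPM in Ly49G+ and 57.5 ± 6.54 in Ly49I+. Second were Il7r, the interleukin 7 receptor gene, for Dpysl5 (0.31), the Notch ligand gene Dll1 for Gpr55 (0.20) and the cytokine gene Csf2 for Chl1 (0.19). Sox6 was nearest to Ikzf2, the gene of the transcription factor Helios (0.12), and then to Kbtbd11 (0.14). Nearest to Ctla2a were the desmoplakin gene Dsp (0.062) and the transcription factor gene Myb (0.079). Emb was nearest to Il6st, which encodes the shared signalling chain of the interleukin 6 family (0.049), and then to Kbtbd11 (0.069).

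**Figure D3:**
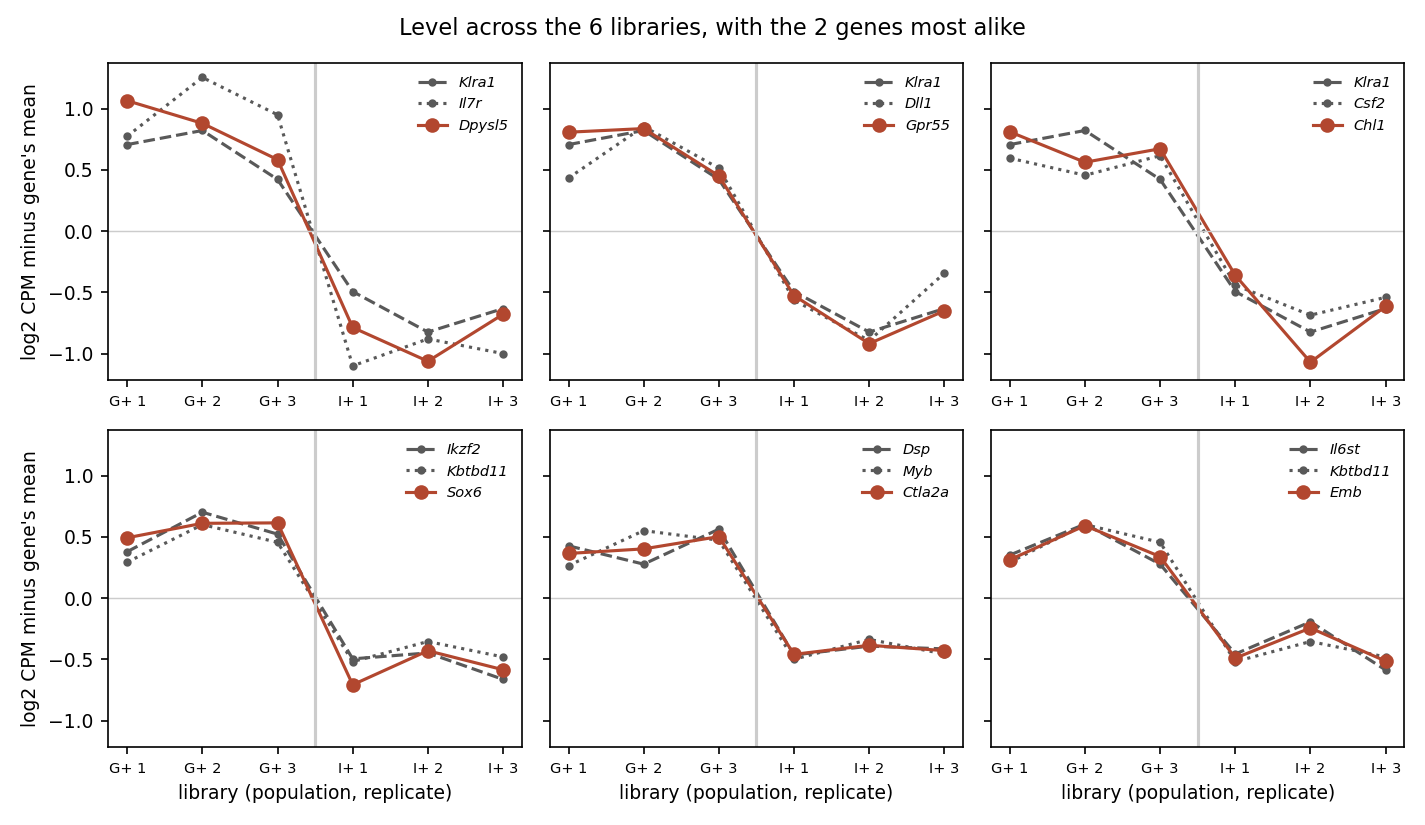
Log2 CPM of each of the 6 genes (red) and of the 2 genes most alike (grey, dashed and dotted) minus the gene's own mean, in the 3 Ly49G+ and 3 Ly49I+ libraries, with lines drawn only to guide the eye. Klra1 nearly overlies Gpr55 and Il6st nearly overlies Emb, and the dip of Dpysl5, Gpr55 and Chl1 in Ly49I+ replicate 2 is absent from Sox6, Ctla2a and Emb.

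Markers of other cells and of NK cell stages moved between the populations as well. Of 14 T cell markers 8 were listed. In limma 5 of them (Cd3e, Cd3d, Cd3g, Trac and Cd28) passed, all toward Ly49G+, beside 1.82% of all genes. Trbc1 (0.22 ± 0.07, adjusted p = 0.122), Trbc2 (0.35 ± 0.09, adjusted p = 0.053) and Lat (-0.12 ± 0.15, adjusted p = 0.662) did not, although Trbc2 did with the replicate block (adjusted p = 0.0234). Their summed level was 400 to 468 CPM in Ly49G+ and 287 to 303 in Ly49I+. Cd3e, a chain of the T cell receptor complex, stood at 9.27, 18.5 and 11.5 CPM in the Ly49G+ replicates and 0.592, 1.06 and 1.22 in the Ly49I+ replicates, and Trac at 20.6, 34.6 and 29.4 against 4.95, 9.57 and 8.19. The T cell sum was highest in Ly49G+ replicate 2, where Emb and Gpr55 were also highest, while Dpysl5 and Chl1 were highest in replicate 1, Ctla2a in replicate 3, and Sox6 was level in replicates 2 and 3. Cd4, Cd8a and Cd5 are not in the table. Summed markers of the CD27+ or immature NK stage ran from 2613 to 2905 CPM in Ly49G+ and 2110 to 2362 in Ly49I+ (17 of 18 measured). In limma 9 of the 17 passed, all toward Ly49G+ and among them Il7r and Ikzf2, and 8 did not. Markers of the CD11b+ or late stage summed to 6454 to 6544 and 8648 to 8822 CPM (15 of 16 measured). Of these 13 passed, all toward Ly49I+, and 2 did not. Leaving out 1 library gave 6 to 10 calls for the immature stage and 5 to 12 for the late stage, while the calls over all genes ran from 94 to 644. Over all genes 1.82% passed toward Ly49G+ and 1.77% toward Ly49I+. Of 12 B cell markers 3 were listed, and their sum, mostly Ighm, overlapped at 307 to 402 and 183 to 365 CPM. Cd22 was higher in Ly49G+, at 41.7, 43.8 and 52.9 against 20.4, 32.2 and 21.3 CPM (0.93 ± 0.17, limma adjusted p = 0.0131, and up to 0.0761 with 1 library left out), and Ighm passed only with the block (adjusted p = 0.0367). The 6 of 13 markers of type 1 innate lymphoid cells summed to 445 to 479 against 346 to 388 CPM. Trdc, a T cell receptor constant gene, made up 213 to 234 and 156 to 178 CPM of these sums. Il21r and Trdc passed in limma toward Ly49G+ (adjusted p = 0.00275 and 0.0158), and the other 4 did not. Of those, Itga1 was lower in every Ly49G+ library (-0.57 ± 0.20, adjusted p = 0.154). No erythroid marker of 9, and 1 each of 8 platelet and 10 stromal and endothelial markers, was listed. What these populations contribute to the 6 genes was not tested.

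The rule that chose the 6 genes did not use the genes whose proteins work with theirs. The lists of these genes were drawn up with earlier results of these data known, so their counts are not independent evidence. Of 174 genes in 7 lists of relatives and partners 71 were measured, of which 9 passed limma's adjusted p of 0.05, with 5 toward Ly49G+ and 4 toward Ly49I+, and the remaining 62 did not. Of all 8520 genes 3.59% passed, 1.82% toward Ly49G+ and 1.77% toward Ly49I+. The median log2 difference was -0.04 over the 71 genes and -0.02 over all genes. With the replicate number as a block, 7 were higher in Ly49G+ and 14 in Ly49I+, beside 5.69% and 5.96% of all genes (11.7% in either direction). The filter at 10 CPM favoured some of these calls. Plxnb2, Mical2 and Cst3 are 3 of the 71 that had no Ly49G+ library at that level and were listed through Ly49I+ alone, the first called in limma and all of them with the block. Slc16a1 was the 1 listed through Ly49G+ alone.

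**Figure D4:**
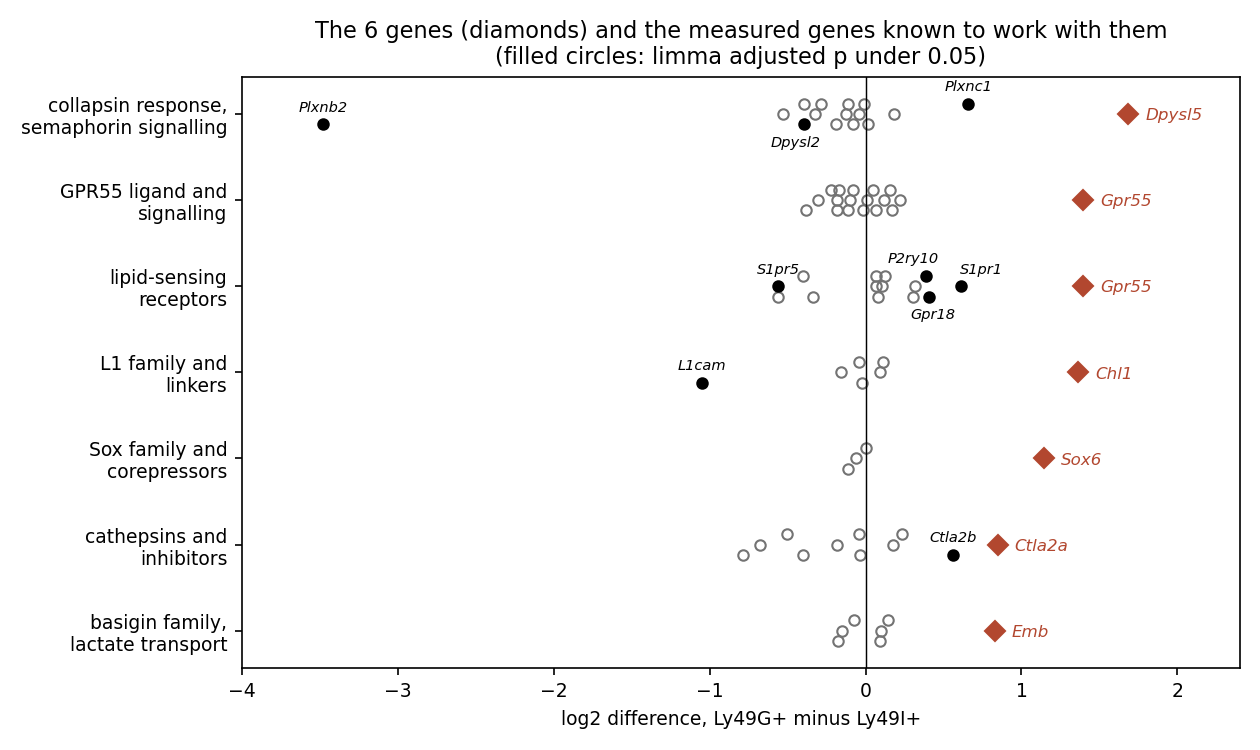
Log2 difference of Ly49G+ minus Ly49I+ (x axis) for the 6 genes (red diamonds, chosen for their difference) and for the measured genes of each list of relatives and partners (circles, filled and named where the limma adjusted p was under 0.05). Most partners lie near 0, L1cam lies opposite to Chl1 and Ctla2b lies on the side of Ctla2a.

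For Chl1 the nearest relative differed in the opposite direction. L1cam, the founding member of the L1 adhesion family, stood at 30.7, 31.9 and 30.9 CPM in Ly49G+ and 60.7, 78.2 and 56.3 CPM in Ly49I+. It was lower in every Ly49G+ library, with a log2 difference of -1.05 ± 0.12 (adjusted p = 0.0012), and -0.91 without Ly49I+ replicate 2, where it was highest. It passed under every alternative and with each library left out (adjusted p up to 0.0166). The membrane linkers ezrin (Ezr), radixin (Rdx) and moesin (Msn), the integrin gene Itgb1 and the chaperone gene Hspa8 were the other 5 measured of 18, and none passed (log2 differences from -0.16 to 0.11). Nrcam and Nfasc, the other L1 family genes, are not in the table.

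For Ctla2a the paralogue went the same way. Ctla2b, which encodes the sister cathepsin inhibitor and lies 36.2 kb from Ctla2a, stood at 116, 113 and 114 CPM in Ly49G+ and 79.3, 82.2 and 71.2 CPM in Ly49I+. All Ly49G+ libraries were above all Ly49I+ libraries, and the log2 difference of 0.56 ± 0.08 passed (adjusted p = 0.00335, and up to 0.0332 with 1 library left out). Both Ctla2 genes had Ly49G+ libraries within a narrow range. Ctsf, Ctsh, Ctsk and Ctsl of this list are not in the table, and no measured cathepsin gene passed in the limma test. Of 10 measured genes of this list of 17, Ctla2b was the only one past it. Ctsb (-0.68 ± 0.21), Ctsz (-0.51 ± 0.17) and the inhibitor gene Cst3 (-0.79 ± 0.28) passed with the replicate block (adjusted p = 0.00518, 0.0158 and 0.0477), toward Ly49I+. Ctsb stood at 99.6, 111 and 115 CPM in Ly49G+ and 133.9, 271 and 145 CPM in Ly49I+, highest in the library where Csf1r was highest, and Cst3 is itself on the myeloid list. Without Ly49I+ replicate 1, 4 genes of the list were called, while the calls over all genes rose from 306 to 644. Ctsw, a cathepsin of cytotoxic lymphocytes, stood at 679 ± 53.0 and 698 ± 44.7 CPM (-0.04 ± 0.08, adjusted p = 0.811).

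For Dpysl5 the only measured relative of its own family, Dpysl2, was lower in Ly49G+. It stood at 122, 135 and 144 CPM in Ly49G+ and 163, 179 and 185 CPM in Ly49I+ (log2 difference -0.40 ± 0.08, adjusted p = 0.029). The call was lost with no trend in the variance model (adjusted p = 0.0743) and on leaving out Ly49G+ replicate 1 (adjusted p = 0.137), Ly49G+ replicate 2 (0.146), Ly49I+ replicate 2 (0.095) or Ly49I+ replicate 3 (0.0533), while the difference stayed between -0.33 and -0.45 with any 1 library left out. Among semaphorin receptors Plxnc1 was higher in Ly49G+, at 71.1, 80.7 and 83.5 against 48.8, 53.2 and 46.8 CPM (0.66 ± 0.09, adjusted p = 0.00314). Plxnb2 was higher in Ly49I+, at 1.21, 1.84 and 1.62 in Ly49G+ against 10.5, 41.3 and 11.5 CPM (-3.48 ± 0.47, adjusted p = 0.00295). It was listed through Ly49I+ alone, so some difference was fixed by the filter. Its high value in Ly49I+ replicate 2 followed that of Csf1r, and the Plxnb2 difference was -2.84 without that library. The semaphorin genes Sema4a, Sema4b, Sema4c and Sema4d did not pass, and neither did Gsk3b, Cdk5, Fyn or Rac1. In all 15 of 46 were measured, 1 higher and 2 lower in Ly49G+, and with the block 1 and 5. The count of 3 was 5 without Ly49I+ replicate 1 and 2 without Ly49G+ replicate 1 or 2 or Ly49I+ replicate 2 or 3. Over all genes the 306 calls became 94 to 644 with 1 library left out.

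For Gpr55 no signalling partner passed in limma, while 4 other lipid receptors did, in both directions. None of 17 measured genes for lysophosphatidylinositol metabolism and for G protein, RhoA and calcium signalling passed in limma, 3 had an unadjusted p under 0.05, beside 19.8% of all genes, and 0 passed with voom's precision weights, beside 3.43%. Their summed level was 3402 to 3460 CPM in Ly49G+ and 3522 to 3532 in Ly49I+. Gna13, which encodes the G protein subunit that GPR55 acts through, stood at 208 ± 3.29 and 191 ± 8.25 CPM (0.12 ± 0.07, adjusted p = 0.343) and Ddhd1, whose enzyme makes lysophosphatidylinositol, at 64.8 ± 1.63 and 64.3 ± 2.69 CPM (0.01 ± 0.08). Mboat7, whose enzyme removes that lipid by acylation, and Nfatc1 passed toward Ly49I+ with the replicate block (adjusted p = 0.0245 and 0.0405), and 2 genes were called without Ly49I+ replicate 1. Of 14 measured lipid receptors out of 37, 3 were higher in Ly49G+, namely Gpr18 (0.41 ± 0.09, adjusted p = 0.0274), P2ry10 (0.39 ± 0.07, adjusted p = 0.0167) and the sphingosine 1-phosphate receptor gene S1pr1 (0.61 ± 0.13, adjusted p = 0.0323). S1pr5, the sphingosine 1-phosphate receptor of mature NK cells, was higher in Ly49I+ (-0.56 ± 0.09, adjusted p = 0.00598). Calls in this list, like those over all genes, depended on single libraries. The 4 became 1, 0 and 2 without Ly49G+ replicates 1, 2 and 3, and 7, 2 and 2 without Ly49I+ replicates 1, 2 and 3. In the same order, the 306 calls over all genes became 155, 94 and 168, and 644, 207 and 293. With the block 5 were higher and 3 lower in Ly49G+, adding Gpr132 and Gpr174 to the first and S1pr2 and S1pr4 to the second.

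For Sox6 and Emb no measured partner passed in limma. Of 21 Sox genes and Sox6 corepressors only Ctbp1, Ctbp2 and Hdac1 were measured, with log2 differences of -0.11, 0.00 and -0.06. No other Sox gene is in the table. An unadjusted p under 0.05 was reached by 0 of these 3, and voom's weights called 0. Embigin's relatives basigin (Bsg, 95.1 ± 3.98 and 89.4 ± 10.2 CPM) and neuroplastin (Nptn, 237 ± 8.07 and 263 ± 15.6 CPM) gave log2 differences of 0.09 ± 0.09 and -0.15 ± 0.07. The lactate transporter gene Slc16a1 stood at 10.4 ± 0.572 and 9.39 ± 0.299 CPM (0.14 ± 0.15, adjusted p = 0.617), and the lactate dehydrogenase gene Ldha at 150.1 ± 13.8 and 139.5 ± 5.86 CPM. Of the 6 measured of 15 in this list 0 had an unadjusted p under 0.05, and voom's weights called 0. The transporter genes Slc16a3 and Slc16a7 of this list are not in the table.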

How the data were processed

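RNA from 3 Ly49G+ and 3 Ly49I+ libraries was sequenced as pairs of 100-base reads from stranded libraries made with 0.4 µg total RNA, per the labels' protocols. CASAVA 1.8.2, STAR 2.3.0, limma and mm10 are named in the submitters' processing notes. The read counter, the annotation and the low filter are not stated. The authors deposited log2 CPM, as limma's voom gives it, for 8520 genes by NCBI gene number. Solving voom's formula (offsets of 0.5 for a count and 1 for a total) gave whole reads for 100% of values within 0.001 read, and whole library totals. Names matched RefSeq (GRCm38.p6) for 8429 genes and GENCODE for 1, and 90 had none.

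limma 3.58.1 (R 4.3.3) was fitted on the deposited values of all genes, with an intensity trend and Benjamini-Hochberg adjustment at 0.05, two-sided. All p-values are from it. It was checked on simulated data. CPM, SD and likeness were computed in Python 3.11.15 with numpy 2.4.6 and pandas 2.3.3, and plots with matplotlib 3.10.9. Counting error was taken from the solved reads. Genes outside the table held 1.43% to 1.71% of reads and were not analysed here.

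The members and lists were chosen with earlier results of these data known, and the lists of relatives hold genes known to act with each member. Named are the 6 genes, list genes past the threshold (up to 6 per list), close relatives, the 2 genes most alike to each member, and Klra7 and Klra9. Cmah and Klra4, the other list genes given with values and the chromosomal neighbours were named after their values were seen. Replicate numbers come from the titles. The deviations of same-numbered libraries from their group means correlated at 0.37, 0.11 and 0.16 over genes for replicates 1, 2 and 3, all above 0.1, and those of different numbers at -0.49 to 0.36, the highest for Ly49G+ replicate 3 with Ly49I+ replicate 2. By the rule of 0.1 for every same-numbered pair, the replicate number was taken to pair the libraries. Ly49G+ replicates 2 and 3 correlated no better with their own number (0.11 and 0.16) than with another (0.12 and 0.36). The correlations therefore do not settle the pairing, no label states it, and results with the replicate block depend on it. Alternatives were no trend, the replicate block, a robust prior, a minimum mean of 4 log2 CPM, median scaling, quantile normalization, voom weights, a pseudocount of 5 reads, and leaving out each library.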

Additional observations from a re-analysis of the deposited data

How the results depend on the processing

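Of the 80 values of the 6 genes' log2 differences under the alternatives, 76 moved by less than the within-population SD, and those without the trend, with the block or with the robust prior equal the reported ones by construction. The exceptions were under quantile normalization, at 2.89 for Dpysl5, 2.27 for Gpr55, 2.04 for Chl1 and 1.97 for Sox6. That method replaces the lowest values of a library by the mean of the lowest over all libraries, and these 4 genes are among the lowest listed in Ly49I+. A minimum mean of 4 log2 CPM removed the same 4 genes, so it gave no value for them. The replicate block raised the calls from 306 to 993 genes, those toward Ly49G+ from 155 to 485, and those among the related genes from 9 to 21. In this balanced design it leaves every difference as it was and changes only the errors. Leaving out 1 library gave 94 (without Ly49G+ replicate 2) to 644 (without Ly49I+ replicate 1) genes called, 45 to 297 of them higher in Ly49G+, and 4 to 19 related genes called. Without the intensity trend 5 related genes were called. The cause was not tested. A tally of 194 values covered 14 genes, namely Klra7, Klra9 and the called or closely related list genes. Of these values 21 no longer passed, all of them in Dpysl2, Gpr18, P2ry10, S1pr1 and S1pr5. Bsg, Nptn and Slc16a1, with 14, 14 and 13 of the values, had not passed at first, so they had no call to lose. Marker genes such as Cd22 and Lyz2 were not in the tally. The 4 low genes rest on 118 to 563 reads per library.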

Other observations

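The genes next to the 6 on their chromosomes were compared to see whether the difference extends to the neighbourhood. The nearest listed gene on each side was taken, 12 in all, a choice made after the values of the 6 were seen. In limma 1 of the 12 passed, Ctla2b beside Ctla2a, as described above, while 3.59% of all genes passed. Mapre3, which encodes a microtubule end-binding protein and starts 15.2 kb beyond Dpysl5, stood at 10.4 ± 0.825 CPM in Ly49G+ and 9.56 ± 0.592 in Ly49I+ (SD, n = 3 libraries each), a log2 difference of 0.12 ± 0.16. Itm2c and Psmd1 beside Gpr55 differed by -0.22 ± 0.10 and 0.02 ± 0.07, and Ppp4r2 and Trnt1, 2641 and 3036 kb from Chl1, by -0.04 ± 0.08 and 0.02 ± 0.12. Pde3b and 1110004F10Rik beside Sox6 differed by 0.16 ± 0.08 and 0.06 ± 0.08. Parp8 and Mrps30 beside Emb differed by 0.10 ± 0.08 and 0.11 ± 0.16, and Slc35f6 on the other side of Dpysl5 by -0.28 ± 0.11. The zinc finger gene Zfp808, 1193 kb from Ctla2a, differed by 0.63 ± 0.21 (limma adjusted p = 0.132, and 0.02 with the replicate block). With the block 2 of the 12 passed, Ctla2b and Zfp808, beside 11.7% of all genes.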
